A study of Homo sapiens with 32 samples.

Results

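For some genes the sgRNA library of this screen held a pair of entries, one under an Ensembl identifier, as for nearly all targets, and a control entry named by the gene symbol alone. The symbol-named control entries were taken as the rows of the count table whose target was not an Ensembl identifier and not one of the nontargeting, LacZ, luciferase, AAVS1 or EGFP controls. They comprised 85 sgRNAs in 16 entries, of 74987 sgRNAs in 18659 entries in all. Of these, 10 entries carried symbols of genes that dividing human cells generally need, with 5 sgRNAs each (AQR, COPZ1, EIF2B3, HSPA9, LUC7L3, NUP93, PAFAH1B1, PSMA3, PSMB2 and SRBD1). The other 6 carried olfactory receptor symbols with 35 sgRNAs together, of which OR10A1 and OR10A2 had 8 each, OR10D2 had 7, OR8A1 had 6, OR10H3 had 5 and OR5I1 had 1. An Ensembl entry of the same symbol, with 4 sgRNAs, was found for 14 of the 16 symbols. None was found for OR10D2 or for OR10A1, which RefSeq lists as a synonym of OR10A5.

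The sgRNAs were counted in genomic DNA of RKO cells, a colorectal cancer line given as WT in genotype. All cells stably expressed Cas9 and Kinprola_PKA, a recorder of protein kinase A activity that takes up the fluorescent substrate CPY-CA when the kinase is active. The sorted cells had received HD CRISPR sublibrary A by lentivirus, and puromycin selection. CPY-CA-labeled cells were sorted by CPY-CA/EGFP into 'high', 'medium' (basal in the sample labels) and 'low' populations. A day 0 control (T0) was sequenced beside them. The methods do not describe its collection, so whether it was taken before or after the selection is not known. There were 2 independent screens, replicates 2 and 3 of the labels and here screens 2 and 3, with 1 library per population, so that every p value below rests on 2 screens. For entries, limma draws the variance of each toward that of all entries, so that the SE and p of an entry depend on this shared variance more than on the spread between its own 2 values.

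Cas9 cuts the genome at the site an sgRNA matches, and repair of the cut often disrupts the gene. Cells that lose a gene needed for growth fall behind or die, so that sgRNAs against such genes become rarer with time in culture, and known essential genes are a common control for whether a knockout screen has worked. Olfactory receptors are odorant-sensing GPCRs of olfactory neurons that most other cells do not need, and sgRNAs against them are a common control for a cut without an effect on growth.

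The 8 libraries held 23369720 to 31777138 reads. The 85 symbol-named sgRNAs had a median of 246 to 334 reads per library, and the lowest count of any of them was 26. Reads were scaled to the mean library total. For each screen, the sorted pool was rebuilt from the scaled reads of 'high', 'medium' and 'low', weighted 0.25, 0.5 and 0.25 after the shares of the gates, and set against T0. Fold changes are log2 values after adding a pseudocount of 1 read, averaged over the sgRNAs of an entry and then over the 2 screens. Entries were tested with limma and single sgRNAs with edgeR, each over the whole table, at a false discovery rate (FDR) under 0.05 after Benjamini-Hochberg adjustment.

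On library totals, none of the 10 symbol-named essential-gene entries was called lower in the sorted pool than at T0, whereas the Ensembl entries of the same genes all were. Their summed reads in the sorted pool were 1.00 times those at T0 in screen 2 and 0.979 times in screen 3. For the Ensembl entries these ratios were 0.329 and 0.300. At the level of entries, 0 of the 10 symbol-named entries were lower in the sorted pool than at T0 by limma, 0 were higher and 0 had an unadjusted p under 0.05, whereas 10 of the 10 Ensembl entries were lower. Among all entries, 8.35% were lower, 2.54% were higher and 10.9% were called in either direction. An unadjusted p under 0.05 was found for 4281 of all 18659 entries. Limma on the log2 values of the 8 libraries called 0 of the 10 symbol-named entries as well. On library totals, the symbol-named entries thus showed no loss like that of the Ensembl entries, and they are called here by their symbols. The log2 fold changes of the symbol-named entries lay between −0.10 and 0.15 with a median of −0.00, and those of the Ensembl entries between −3.20 and −0.57 with a median of −1.92 (adjusted p at most 6.74e-05, limma). The lowest 95% confidence bound of a symbol-named entry was −0.30, a loss of 18.9% of its reads, and the highest bound of an Ensembl entry was −0.37. The median of all entries was 0.04.

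This outcome depended in part on what was taken as unchanged. The 278 sgRNAs without a genomic target (nontargeting, LacZ and luciferase) had a median log2 fold change of 0.24 in the sorted pool against T0. When the values were centred on these sgRNAs, the median entry shifted by −0.22, 4 of the 10 symbol-named entries (AQR, HSPA9, LUC7L3 and PSMA3, −0.33 to −0.29) were lower, and so were 25.9% of all entries. Of all called entries, 76.7% were lower on library totals and 99.5% after this centring. Centring moves both entries of a symbol alike and leaves the difference between them, symbol-named minus Ensembl, nearly as it was. This difference passed the limma test for 10 of the 10 essential symbols with either scaling, and for 10 of all 14 pairs tested (71.4%). It ranged from 0.46 for LUC7L3 to 3.10 for PSMA3 with a median of 1.99, and its sign was the same in both screens for each of the 10.

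The largest differences belonged to the proteasome, the protease that degrades ubiquitinated proteins. PSMA3 (chr14:58244843-58272012 in GRCh38) encodes an alpha subunit of its core particle. Its symbol-named entry had 1576 and 1551 scaled reads in the sorted pool of screens 2 and 3, against 1671 and 1684 at T0. Its Ensembl entry had 241 and 145 scaled reads in the sorted pool, against 1728 and 1521 at T0. The fold change was thus −0.10 ± 0.09 (SE, n = 2 screens) for the symbol-named and −3.20 ± 0.12 for the Ensembl entry, a difference of 3.10 (95% interval 2.81 to 3.39, limma adjusted p = 7.73e-16). The 5 symbol-named sgRNAs lay between −0.45 and 0.05 and the 4 Ensembl sgRNAs between −3.94 and −2.65, without overlap. PSMB2 (chr1:35599541-35641526), a beta subunit of the same particle, behaved alike. Its symbol-named entry had 2944 and 3042 scaled reads in the sorted pool, against 3053 and 3011 at T0, and its Ensembl entry 144 and 153 in the sorted pool, against 802 and 808 at T0. The difference was 2.61 (95% interval 2.34 to 2.88, limma adjusted p = 6.18e-15). The 5 symbol-named PSMB2 sgRNAs spread the least of the essential symbols, from −0.09 to 0.08.

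Among genes of the cell's transport systems, COPZ1 (chr12:54301202-54351846) encodes a subunit of the COPI coat of Golgi vesicles. Its symbol-named entry had 1683 and 1643 scaled reads in the sorted pool, against 1508 and 1633 at T0, whereas its Ensembl entry had 431 and 419.8 in the sorted pool, against 1638 and 1417 at T0. The difference of 2.20 passed the test (95% interval 1.93 to 2.47, limma adjusted p = 2.48e-13). PAFAH1B1 (chr17:2593210-2685615) encodes LIS1, a regulator of the motor protein dynein, and its symbol-named entry had the highest fold change of the 10, 0.15 ± 0.09 (SE). It had 1293 and 1341 scaled reads in the sorted pool, against 1364 and 1266 at T0, and its Ensembl entry 476 and 382 in the sorted pool, against 1403 and 1418 at T0. The summed reads of the symbol-named entry moved in opposite directions in the 2 screens, although its mean over sgRNAs was above 0 in both. NUP93 (chr16:56730118-56850286) encodes a scaffold nucleoporin of the nuclear pore. Its symbol-named entry stayed closest to 0 with a fold change of 0.01, and had 1524 and 1462 scaled reads in the sorted pool, against 1589.7 and 1478 at T0. Its Ensembl entry fell by 1.17, with 428 and 428 reads in the sorted pool, against 855 and 965 at T0. For each of these 3 genes, every Ensembl sgRNA lay below every symbol-named sgRNA.

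In RNA processing, AQR (chr15:34851782-34969742) encodes a helicase of the spliceosome that contacts introns. The symbol-named entry had 2482 and 2313 scaled reads in the sorted pool, against 2343 and 2616 at T0, and the Ensembl entry 248 and 196 in the sorted pool, against 1506 and 1226 at T0. The difference was 2.06 (95% interval 1.80 to 2.32, limma adjusted p = 5.61e-13). The sgRNAs of the AQR entries nevertheless overlapped, because Ensembl sgRNA 4 had a fold change of −0.13, with 94 and 78 scaled reads in the sorted pool, against 112 and 79 at T0, while the lowest symbol-named sgRNA was at −0.28. LUC7L3 (chr17:50719565-50756219) encodes a splicing factor associated with the U1 snRNP, and its Ensembl entry changed the least of the 10, with 670.3 and 589 scaled reads in the sorted pool, against 1042 and 883 at T0. The symbol-named entry had 1162 and 1212 reads in the sorted pool, against 1156 and 1384 at T0. The difference was 0.46 (95% interval 0.20 to 0.72, limma adjusted p = 0.0153), and the sgRNAs of both entries overlapped, from −0.29 to 0.08 for the symbol-named and from −0.88 to −0.12 for the Ensembl ones. SRBD1 (chr2:45388680-45612165) encodes a protein with a predicted RNA-binding domain. Its symbol-named entry had 1256 and 1289.8 scaled reads in the sorted pool, against 1101 and 1222 at T0, and its Ensembl entry 383 and 228 in the sorted pool, against 1419.8 and 1249 at T0, with no overlap between the sgRNAs of the entries.

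In protein synthesis and folding, EIF2B3 (chr1:44850522-44986722) encodes a subunit of eIF2B, the exchange factor that recharges the initiation factor eIF2 with GTP. The symbol-named entry had 1132 and 1259 scaled reads in the sorted pool, against 1087 and 1103 at T0, and the Ensembl entry 598 and 527 in the sorted pool, against 1272 and 1258 at T0. The sgRNAs of its entries did not overlap, and the difference was 1.17 (95% interval 0.89 to 1.44, limma adjusted p = 9.97e-08). HSPA9 (chr5:138553756-138575675) encodes mortalin, the Hsp70 chaperone of mitochondria. Its symbol-named entry had 1089 and 1058 scaled reads in the sorted pool, against 1215 and 1126 at T0, and its Ensembl entry 749 and 576 in the sorted pool, against 1598 and 1396 at T0. The difference was 0.95 (95% interval 0.68 to 1.21, limma adjusted p = 2.34e-06). The lowest symbol-named HSPA9 sgRNA (−0.53) lay just under the highest Ensembl sgRNA (−0.52).

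For single sgRNAs, edgeR called 1 of the 50 symbol-named sgRNAs of essential genes lower in the sorted pool, against 35 of the 40 in the Ensembl entries of the same genes, where 6.29% of all sgRNAs tested were lower and 1.03% higher. The exception was sgRNA 5 of symbol-named HSPA9, with 249.7 and 208 scaled reads in the sorted pool, against 392 and 278 at T0. It was lower in both screens (−0.65 in screen 2 and −0.42 in screen 3, edgeR adjusted p = 0.0259). The call was lost on leaving out any of 6 of the 8 libraries, with an adjusted p of 0.0506 to 0.529, while its edgeR fold change stayed between −0.69 and −0.43, against −0.56 with all libraries. PSMA3 sgRNA 2, the next lowest, had 251 and 265 scaled reads in the sorted pool, against 327 and 382 at T0 (−0.38 and −0.52, edgeR adjusted p = 0.0795). Of the 50 sgRNAs, 16 were below 0 in both screens and 14 above 0 in both, and none had a mean fold change of −1 or less, which 31 of the 40 Ensembl sgRNAs did. All 40 Ensembl sgRNAs were below 0 in both screens. Ranked among all sgRNAs, the symbol-named essential sgRNAs had a median percentile of 46.3 and 2 of them lay below percentile 10, whereas the Ensembl sgRNAs of the same genes had a median percentile of 1.77 and 38 lay below percentile 10.

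The spread among sgRNAs also differed, which largely follows from fold changes near 0 in 1 set and is no separate result. Over the 50 symbol-named essential sgRNAs the SD of the fold change was 0.275 in screen 2 and 0.266 in screen 3, against 0.932 and 1.15 over the 40 Ensembl sgRNAs. The latter SDs include the differences between genes. As a description across sgRNAs, which share libraries and are not independent replicates, the fold changes of the 2 screens correlated with a Pearson r of 0.13 for the symbol-named essential sgRNAs and 0.88 for the Ensembl ones. Across the 10 symbols, the fold change of the symbol-named entry and that of the Ensembl entry had an r of 0.05. The symbol-named values ran only from −0.10 to 0.15 with SEs of 0.095 to 0.098, so this r cannot show whether the entries were related. The starting abundance was similar, with medians at T0 of 292 and 282 scaled reads per symbol-named essential sgRNA in screens 2 and 3, and 279 and 300.3 per Ensembl sgRNA.

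Related genes under Ensembl identifiers, grouped by the letters of their symbols, showed what loss the same test called elsewhere, beside the 8.35% of all entries that were lower and the 2.54% that were higher. Of the 40 entries with PSMA, PSMB, PSMC or PSMD symbols, all proteasome subunits or assembly factors but for PSMC3IP, 31 were lower in the sorted pool than at T0, 0 were higher and 9 were not called by limma, with a median fold change of −2.04. Among them, 7 of 8 PSMA and 7 of 11 PSMB entries were lower. For translation, 80 of 88 entries with RPL or RPS symbols, leaving out the RPS6K kinases, were lower and 1 was higher (median −1.91). They are mostly ribosomal proteins, with others such as RPS19BP1, RPL7L1 and the readthrough entries RPL36A-HNRNPH2 and RPS10-NUDT3. Of 56 entries with the letters EIF, 31 were lower and 1 higher (median −0.43). For transcription and splicing, 13 of 14 entries with POLR2 symbols, most of them subunits of RNA polymerase II (median −2.04), and 9 of 9 SF3A and SF3B entries of the spliceosome (median −2.36) were lower. The NUP genes were split, with 11 of 23 lower (median −0.28), and of 14 HSPA genes 3 were lower (median 0.06). The Ensembl entries of EIF2B3, HSPA9, NUP93, PSMA3 and PSMB2 are members of these lists.

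The symbol-named olfactory receptor sgRNAs lay mostly above the middle of the library, though by small fold changes. Their median percentile among all sgRNAs was 72.4. Of the 6 symbol-named entries, 0 were called between the sorted pool and T0 by limma, where 10.9% of all entries were. An unadjusted p under 0.05 was found for 1 of the 6, against 4281 of all 18659 entries. The fold changes of the 6 ran from 0.04 to 0.25 with a median of 0.16. OR10A1 was the highest. Its 8 sgRNAs had 3089 and 3347 scaled reads in the sorted pool, against 2696 and 2749.5 at T0, and the entry was above 0 by about the same amount in both screens (0.25 and 0.25, SE 0.09). Its unadjusted p was 0.0137 and its limma adjusted p 0.0967. The Ensembl entry of OR10A5, for which RefSeq lists OR10A1 as a synonym, had a fold change of 0.20 (limma adjusted p = 0.207).

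OR8A1 (chr11:124566660-124582942) followed, with 2024 and 2111 scaled reads in the sorted pool, against 1762 and 1858 at T0. OR10A2 (chr11:6863057-6874717) had 2543 and 2538 in the sorted pool, against 2277 and 2430.3 at T0. Both were above 0 in both screens. The single sgRNA of OR5I1 (chr11:55935456-55936400) had 458 and 467 in the sorted pool, against 455 and 376 at T0, and thus differed mainly in screen 3. OR10D2, with 1654 and 1836 in the sorted pool, against 1656 and 1771 at T0, stayed nearest to 0 (0.04). OR10H3 (chr19:15737985-15742343) had 1421 and 1471 in the sorted pool, against 1206 and 1621 at T0, and was the one entry of the 6 whose screens differed in sign (0.26 and −0.14).

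The symbol-named and Ensembl entries of the 4 shared receptors did not differ beyond their error. The differences were 0.20 for OR8A1 (95% interval −0.05 to 0.46), 0.11 for OR5I1 (−0.32 to 0.55), 0.01 for OR10A2 (−0.23 to 0.25) and −0.05 for OR10H3 (−0.33 to 0.23), and 0 of 4 passed the limma test or had an unadjusted p under 0.05. These intervals leave room for differences of up to about the size seen for LUC7L3, and for OR5I1, with 1 symbol-named sgRNA, for more. Among single sgRNAs, 0 of the 35 were called by edgeR or by DESeq2, where edgeR called 7.32% of all sgRNAs. By edgeR, 4 of the 35 had an unadjusted p under 0.05, against 12754 of all 74847 tested. In the 339 Ensembl olfactory receptor entries, 32 of 1354 sgRNAs tested were lower and 41 higher. The highest symbol-named receptor sgRNA was OR10A2 sgRNA 9, with 143 and 165 scaled reads in the sorted pool, against 92 and 107 at T0 (0.63 and 0.61, edgeR adjusted p = 0.172). OR10H3 sgRNA 28 differed between the screens (0.90 and −0.08), with 277 and 287 scaled reads in the sorted pool, against 148 and 304 at T0.

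The control groups of the library did not share 1 level. The summed reads in the sorted pool were 1.11 and 1.09 times those at T0 for the symbol-named receptor sgRNAs, 1.16 and 1.19 times for the sgRNAs without a genomic target, 0.924 and 1.01 times for the 50 AAVS1 sgRNAs and 0.287 and 0.268 times for the 22 EGFP sgRNAs, which target the reporter. By edgeR, 0 of 275 tested sgRNAs without a genomic target were lower and 24 higher, 10 of 50 AAVS1 sgRNAs were lower and 1 higher, and 19 of 22 EGFP sgRNAs were lower, where 6.29% of all sgRNAs were lower and 1.03% higher. The symbol-named essential sgRNAs, at 1.00 and 0.979, lay between the AAVS1 and the receptor sgRNAs in screen 2 and below both in screen 3. What set these levels apart was not tested.

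Between the sorted populations, the question was whether any control entry shifted with Kinprola_PKA labeling. In the 'high' versus 'low' comparison, 0 of the 16 symbol-named entries were called by limma, where 7.97% of all entries were. An unadjusted p under 0.05 was found for 0 of the 16, against 3286 of all 18659 entries. Their fold changes ran from −0.24 (SRBD1) to 0.15 (AQR). Of the 85 sgRNAs, edgeR and DESeq2 called 0, where edgeR called 4.5% of all. By edgeR, 7 of the 85 had an unadjusted p under 0.05, against 9632 of all 74739 tested. The widest sgRNA was SRBD1 sgRNA 3, with 56 and 31 scaled reads in 'high', against 100.4 and 70.1 in 'low' (edgeR adjusted p = 0.336), and it was among the least abundant of the 85.

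The Ensembl entries of the essential genes behaved differently in this comparison. Of the 10, 4 were more abundant in 'high' than in 'low' (AQR, HSPA9, PSMA3 and PAFAH1B1) and 1 was less abundant (EIF2B3) by limma, where 5.25% of all entries were more and 2.72% less abundant. The Ensembl entry of AQR had 590.1 and 366 scaled reads in 'high', against 115 and 105 in 'low', and that of HSPA9 had 1050.3 and 968 in 'high', against 415 and 263 in 'low'. The symbol-named AQR entry had 2401 and 2344 in 'high', against 2298 and 2146 in 'low', and the symbol-named HSPA9 entry 1085 and 1094 in 'high', against 1073 and 1006 in 'low'. No shift was detected for either symbol-named entry (0.15, 95% interval −0.09 to 0.39, and 0.03, −0.21 to 0.26). The difference in fold change, symbol-named minus Ensembl, was −1.84 for AQR (95% interval −2.17 to −1.52, limma adjusted p = 4.95e-06) and −1.56 for HSPA9 (−1.89 to −1.23, limma adjusted p = 2.03e-05).

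The difference also passed the test for PSMA3 (−1.13, limma adjusted p = 0.000647), NUP93 (−0.76, limma adjusted p = 0.0208) and LUC7L3 (−0.60, limma adjusted p = 0.0255), which made 5 of 10 essential symbols and 5 of all 14 pairs (35.7%). For NUP93 the screens were uneven, at −0.40 in screen 2 and −1.12 in screen 3. COPZ1 (−0.51, limma adjusted p = 0.0566), PAFAH1B1 (−0.49, limma adjusted p = 0.114) and PSMB2 (−0.31, limma adjusted p = 0.292) were negative in both screens without passing. EIF2B3 went the other way (0.28, 95% interval −0.03 to 0.60), and SRBD1 was near 0 (0.04, 95% interval −0.31 to 0.38). None of the 4 receptor pairs passed, with differences from −0.16 to 0.25.

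In 'low' versus 'medium', 0 of the 16 entries and 0 of the 85 sgRNAs were called by limma and edgeR, where 2.72% of entries and 1.4% of sgRNAs were. DESeq2 called 0 sgRNAs. By edgeR, 5 of the 85 had an unadjusted p under 0.05, against 6399 of all 74739 tested. AQR was the entry farthest from 0. It had 2298 and 2146 scaled reads in 'low', against 2615 and 2381 in 'medium' (−0.25, unadjusted p = 0.0421, limma adjusted p = 0.418). EIF2B3 showed how far 1 screen could move an entry, with 1328 and 1281 in 'low', against 1005 and 1315 in 'medium' (0.44 in screen 2 and −0.00 in screen 3). In 'high' versus 'medium', 0 of the 16 entries and 0 of the 85 sgRNAs were called by limma and edgeR, where 1.8% of entries and 1.25% of sgRNAs were. DESeq2 called 0 sgRNAs. An unadjusted p under 0.05 was found for 0 of the 16 entries by limma, against 1867 of all 18659. By edgeR it was found for 7 of the 85 sgRNAs, against 6668 of all 74739 tested. Fold changes lay between −0.18 (OR5I1, with 1 sgRNA) and 0.11 (PAFAH1B1).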

How the data were processed

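The authors demultiplexed and counted reads with MAGeCK, and deposited 4 columns of raw counts for every library, 1 per lane, with a row for each sgRNA. The methods and labels state no filter on these counts. The sgRNA sequences were not used. The study later took core-essential genes out of its hit list, which was not done here. Lanes were summed, since they varied little beyond counting error (chi-square over its degrees of freedom, 1.02 to 1.03), whereas the screens did (5.76 to 7.34). The table has 4 further columns that match no sample, which were not used. PCR reads are not independent molecules, so counting error understates the full error. Members and gene lists were chosen with earlier results of these data known. Every symbol-named entry is named in the text, with the Ensembl entry of its symbol. sgRNAs were named as the most and least changed of an entry or as past a threshold, and OR10A2 sgRNA 9, OR10H3 sgRNA 28, SRBD1 sgRNA 3 and AQR Ensembl sgRNA 4 were singled out after their values were seen. The EIF, HSPA, NUP, PSMA and PSMB lists hold all entries whose symbol has the same letters before its first digit, where there were at least 5.

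Entries were tested with limma 3.58.1 (lmFit and eBayes) on the 2 within-screen fold changes, which makes the screen a block. The study's methods name fold changes of corresponding samples, the mean over replicates and limma, but no block. Differences between the entries of a symbol were scaled to the variance of an entry with 4 sgRNAs and fitted with all entries. sgRNAs were tested with edgeR 4.0.16 (TMM, filterByExpr, quasi-likelihood test, screen as a block) under R 4.3.3, over 74847 sgRNAs for the sorted pool against T0 and 74739 for the sorted populations. Tables were made in Python 3.11.15. The pairing by screen comes from the study, which made each screen independently. Deviations of same-numbered libraries from their group means correlated at 0.0745 to 0.129. Gene positions and names are from GENCODE 44 (GRCh38), which named 18585 of 18638 Ensembl identifiers.

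Alternatives were a pseudocount of 5 reads, centring or normalisation on sgRNAs without a genomic target, a minimum mean of 50 reads, the median over sgRNAs, a weighted mean of log2 values, fits on the 8 libraries with and without the replicate block, DESeq2 1.42.0, library totals without a composition factor, no filter, and leaving out each library. On simulated counts for the sorted pool against T0, limma recovered 100 of 100 entries lowered by a log2 of 1 and 100 of 100 lowered by 2, with 24 of 18449 unchanged entries called. edgeR recovered 390 of 400 sgRNAs lowered by 1 and 439 of 439 lowered by 2, with 39 of 73981 unchanged called. All 10 simulated pair differences of 2 were called and 0 of 4 null pairs. The simulation lowered all sgRNAs of an entry alike, used a common dispersion and changed few entries. It therefore does not show how the tests deal with uneven sgRNAs, with a shift between library totals and sgRNAs without a genomic target, or with smaller changes.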

Additional observations from a re-analysis of the deposited data

How the results depend on the processing

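Fold changes near 0 changed sign with the scaling. After centring on the sgRNAs without a genomic target, the 10 symbol-named essential entries lay between −0.33 and −0.07, against −0.10 to 0.15 on library totals. The 6 receptor entries then had a median of −0.07 (−0.18 to 0.03), against 0.16 (0.04 to 0.25). Of 1024 recomputations of single results, 919 were rated the same as reported, 88 moved, 11 stronger and 6 weaker. Counts of calls kept to within 1.5 times of those reported in 126 of 134 recomputations. Most of the counts reported were 0, and for these the rule only asks whether the count was 0 again. Centring on the sgRNAs without a genomic target gave 4 symbol-named essential entries lower in the sorted pool, against 0, where 25.9% of all entries were lower. Normalising on them gave 9 of the 50 essential sgRNAs, against 1. With that normalisation 14287 of all 74847 sgRNAs tested were lower, against 4707 in the main fit. Across the libraries left out in turn, the essential sgRNAs called lower ranged from 0 to 1 (without 'high' of screen 2, PSMA3 sgRNA 2 at an edgeR adjusted p of 0.0348 in place of HSPA9 sgRNA 5), and the receptor sgRNAs called from 0 to 1 (OR10H3 sgRNA 28, without T0 of screen 3). With limma on the 8 libraries, 0 of the 10 essential and 0 of the 6 receptor entries were called with the replicate block and 0 without it. Without the block, edgeR called 1 essential and 0 receptor sgRNAs. The pairing thus changed no call of a symbol-named entry or sgRNA. Over all sgRNAs, edgeR called 4666 in the sorted pool against T0 without the block and 5481 with it. All sorted-population counts stayed at 0 for the 16 entries and at 0 for the 85 sgRNAs. The 10 essential pair differences in the sorted pool passed under each alternative in which pairs were tested. These were the pseudocount of 5 reads, the centring, the minimum mean of 50 reads, the median over sgRNAs and the weighted mean of log2 values. Pairs were not tested with single libraries left out or in the fits on the 8 libraries. In 'high' versus 'low', 5 to 7 passed, with COPZ1 and PAFAH1B1 added with the median over sgRNAs and with the minimum mean of 50 reads, and COPZ1 with a pseudocount of 5 reads. With 1 screen left out, a pair difference has no test. Without screen 2 or screen 3, the essential pair differences in the sorted pool were 0.42 to 3.40. The symbol-named sgRNAs had a median of 246 to 334 reads per library. On library totals, the 95% intervals leave room for a loss of up to 18.9% of the reads of a symbol-named essential entry. After centring on the sgRNAs without a genomic target, the fold changes themselves reached −0.33, so that this bound does not hold for that scaling.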
